A study of Mus musculus with 16 samples.

Results

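The genes described here are 2 intestinal alkaline phosphatase genes of the mouse, Alpi and Akp3, and 4 keratin genes of the gut lining, Krt20, Krt8, Krt18 and Krt19. They were examined in chromatin of jejunal epithelial cells from C57BL/6 neonates at postnatal day 12, isolated from neonates lacking NCoR1 in the intestine (KO, labelled ΔIECUN) and from wild-type neonates (WT, labelled F/FUN). NCoR1 is a corepressor that brings histone deacetylase activity to nuclear receptors. Histone marks were measured by ChIP-seq for 6 modifications, with a single library for each genotype and mark. Differences therefore have no replicate check, and the values describe these libraries. The labels do not expand the letters UN, which both group names carry. The genotypes' lists also hold 89 regions on an added sequence named UGT1A. The Cre driver and the number of animals behind a library are not given in the sources used here.

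The authors called regions of each mark in one genotype against the other, so that a list holds places where the KO library was above the WT library (KO-higher regions) or the reverse (WT-higher regions). A region was given to the protein-coding gene whose transcript start lay nearest to its summit, within 50 kb. Of 23511 regions in 10 lists, 27 fell to 5 of these 6 genes. There were 25 KO-higher regions, 18 of H3K27ac and 7 of H3K9ac, and 2 WT-higher regions, both of H3K4me1. Krt19 had none. The genes were chosen by such region counts and by RNA values, so the counts are a description and support nothing by themselves.

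Alkaline phosphatases of the gut sit in the brush border, the layer of microvilli on the absorptive enterocyte, where they remove phosphate from bacterial lipopolysaccharide and from nucleotides. Keratins form the intermediate filaments of the same cells. A type II keratin (Krt8) pairs with a type I keratin (Krt18, Krt19 or Krt20), and Krt20 is known as a keratin of differentiated cells of the villus. H3K27ac and H3K9ac are acetyl marks of active promoters and enhancers, H3K4me1 marks enhancers and the flanks of promoters, H3K4me3 marks active promoters, and H3K9me3 and H3K27me3 mark repressed chromatin.

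The sequences below, from the mm9 assembly, plus strand, 5′ to 3′, are shown because the account turns on them. They are the region with the highest fold of each acetyl mark at Krt20, the bases of Krt20 exon 1 that 3 lists share, the H3K9ac region with the highest fold at Alpi, the 200 bases around the summit of the most distal Alpi H3K27ac region, the H3K27ac region with the highest fold at Krt8, and the only region at Akp3. Capitals mark matches, on either strand, to motifs of factors known in enterocytes: CAAAGTCCA of HNF4, the CDX core TTTAT, the site AGATAA of zinc finger factors of the GATA family, the nuclear receptor half-site AGGTCA and the KLF core GGGTG.
Krt20 KO-higher H3K27ac, chr11:99299931-99300113: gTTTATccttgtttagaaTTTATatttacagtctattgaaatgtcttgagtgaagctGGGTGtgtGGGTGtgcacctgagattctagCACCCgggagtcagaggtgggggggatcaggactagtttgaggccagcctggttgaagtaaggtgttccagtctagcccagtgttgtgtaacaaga
Krt20 KO-higher H3K9ac, chr11:99297063-99297283: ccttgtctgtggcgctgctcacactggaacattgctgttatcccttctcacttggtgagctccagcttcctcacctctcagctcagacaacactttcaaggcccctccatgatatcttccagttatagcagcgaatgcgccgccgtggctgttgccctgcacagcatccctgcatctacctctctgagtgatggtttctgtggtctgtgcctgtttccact
Krt20 bases shared by 3 lists, chr11:99299183-99299350: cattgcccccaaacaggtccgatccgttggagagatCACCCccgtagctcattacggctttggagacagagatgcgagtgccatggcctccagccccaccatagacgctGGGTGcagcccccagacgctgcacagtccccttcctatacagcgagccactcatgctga
Alpi KO-higher H3K9ac, chr1:89005677-89005823: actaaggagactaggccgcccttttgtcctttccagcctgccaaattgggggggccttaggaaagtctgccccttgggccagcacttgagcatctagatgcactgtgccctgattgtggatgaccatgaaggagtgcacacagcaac
Alpi KO-higher H3K27ac summit, chr1:89006396-89006595: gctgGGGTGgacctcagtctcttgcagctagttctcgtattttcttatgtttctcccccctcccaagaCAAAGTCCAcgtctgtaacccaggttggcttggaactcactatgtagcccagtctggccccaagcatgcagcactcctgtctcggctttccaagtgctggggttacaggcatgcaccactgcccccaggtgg
Krt8 KO-higher H3K27ac, chr15:101836827-101837006: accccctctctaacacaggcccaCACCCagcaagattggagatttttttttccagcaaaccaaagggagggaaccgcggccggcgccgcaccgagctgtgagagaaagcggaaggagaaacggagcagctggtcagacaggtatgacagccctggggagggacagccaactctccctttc
Akp3 WT-higher H3K4me1, chr1:89024043-89024213: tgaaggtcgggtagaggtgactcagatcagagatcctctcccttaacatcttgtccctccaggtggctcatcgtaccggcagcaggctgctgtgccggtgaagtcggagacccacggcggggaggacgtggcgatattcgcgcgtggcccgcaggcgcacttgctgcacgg

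The first question was at how many of the genes acetylation differed between the genotypes. A KO-higher H3K27ac region lay at 4 of the 6 genes (Alpi, Krt20, Krt8 and Krt18), beside 11.6% of all 21693 protein-coding genes. A KO-higher H3K9ac region lay at the same 4 genes, beside 4.02% of all genes. This H3K9ac count was 2 genes (Alpi and Krt20) with a limit of 10 kb, or with gene bodies extended by 5 kb in place of nearest starts, since neither Krt8 nor Krt18 then had an H3K9ac region. No WT-higher H3K27ac or H3K9ac region lay at any of the 6, where 7.58% and 7.63% of all genes had one. In a tissue sample, more cells of a type and more mark per cell cannot be told apart. All 6 absorptive enterocyte markers (Fabp1, Fabp2, Apoa1, Apob, Rbp2 and Lct) had KO-higher acetylation too and none had WT-higher acetylation, and their part in these counts was not tested.

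**Figure D1:**
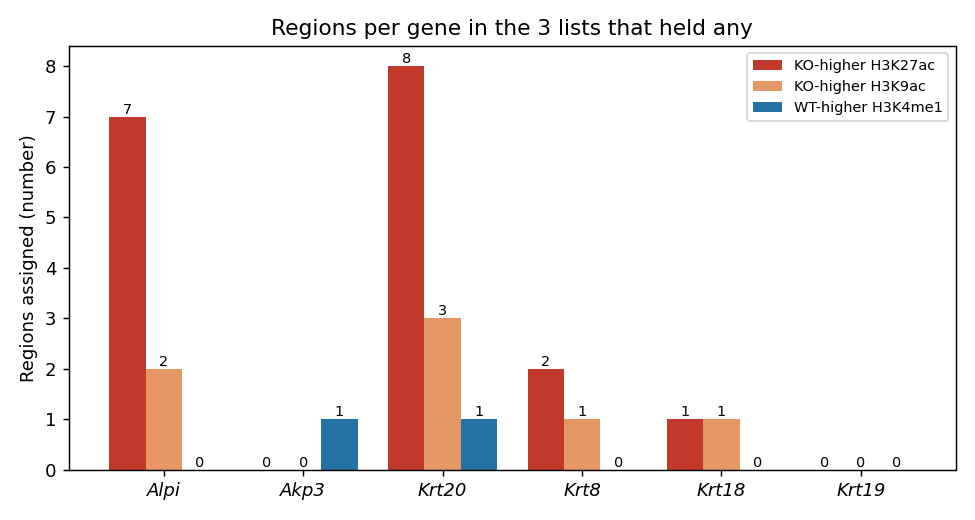
Number of regions (vertical axis) assigned to each of the 6 genes (horizontal axis) in the 3 lists that held any: KO-higher H3K27ac, KO-higher H3K9ac and WT-higher H3K4me1. Krt20 and Alpi had 8 and 7 KO-higher H3K27ac regions, Krt8 and Krt18 had 2 and 1, and Akp3 and Krt19 had none.

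The other marks gave few regions at these genes. WT-higher H3K4me1 lay at 2 of 6 genes (Akp3 and Krt20), beside 7.61% of all genes. No region of the remaining lists was assigned to the 6 genes, beside 0.3% of all genes for KO-higher H3K4me3, 15.3% for WT-higher H3K4me3, 2.28% for KO-higher H3K9me3, 1.09% for WT-higher H3K9me3 and 0.867% for WT-higher H3K27me3. Lists of KO-higher H3K4me1 and H3K27me3 were not analysed here, so a gain of these marks in KO cells could not have been seen.

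Of the 25 KO-higher regions, 18 had their summit upstream of the start they were assigned to and 7 downstream. Between genes lay 18 of them, in introns 4 and in coding exons 3. Within 1 kb of the start lay 8, and 6 lay farther than 10 kb away. The folds were moderate for their lists: the median over the 18 H3K27ac regions was 2.16 (1.42 to 3.56), against 2.52 over the whole list, and over the 7 H3K9ac regions it was 2.38 (1.87 to 4.91), against 2.91.

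**Figure D2:**
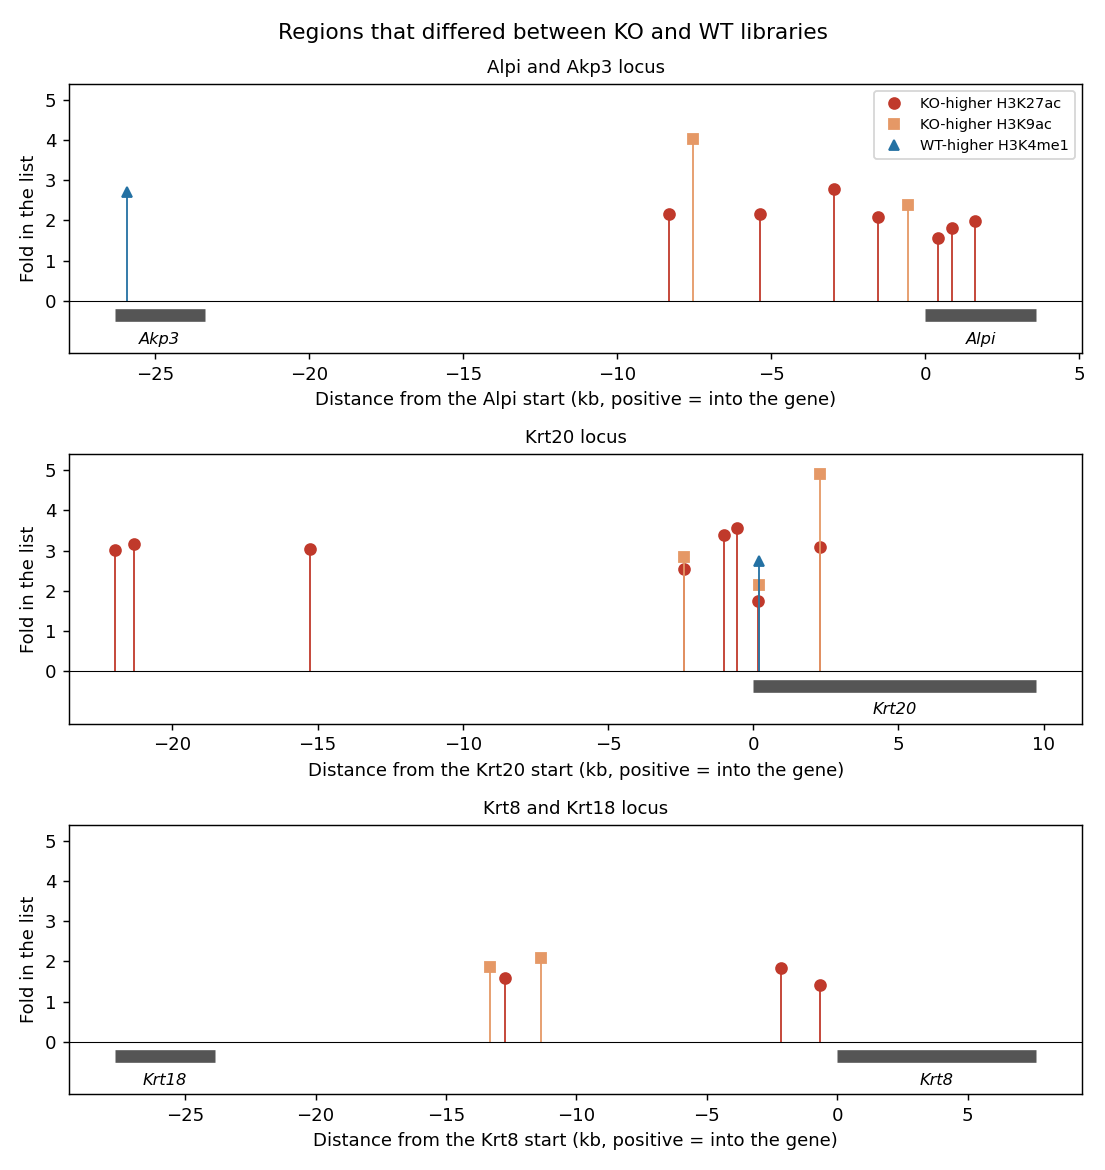
Position of each region's summit relative to the start of Alpi, Krt20 or Krt8 (horizontal axis, kb, positive into the gene) and the authors' fold (vertical axis), with gene bodies as grey bars. Regions at Alpi lay from 1612 bp inside the gene to 8315 bp upstream, those at Krt20 reached 21969 bp upstream, and all 5 acetylation regions of Krt8 and Krt18 lay between these genes.

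Krt20, the villus keratin, carried the most regions and the highest folds of the 6 genes. The gene lies at chr11:99289717-99299464 on the minus strand and has 8 exons. Its 8 KO-higher H3K27ac regions and 3 KO-higher H3K9ac regions spanned 24540 bp. Of the 2514 genes with KO-higher H3K27ac, 114 had as many regions or more, and the median was 2. Of the 873 genes with KO-higher H3K9ac, 168 had 3 or more.

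Levels are given as the authors' pileup, the number of tags covering the summit after the larger library was scaled to the smaller, and as the local background of the other genotype's library, worked back from the fold. The authors' fold is the pileup plus 1 over that background plus 1. Tags given for the other genotype's library are this background, which need not equal its level at the summit. Nearest to the Krt20 start, in coding exon 1 (166 bp inside the gene), H3K27ac reached 119 tags in the KO library and 67.5 tags in the WT library, a fold of 1.75. The highest H3K27ac fold of the gene, 3.56, lay 564 bp upstream, with 80.0 tags in the KO library and 21.7 tags in the WT library. That region ranked 1199 of 7111 in its list by fold and 423 by -log10 p.

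Another upstream region, 989 bp from the Krt20 start, had 83.0 H3K27ac tags in the KO library and 23.8 tags in the WT library (fold 3.39). At 2364 bp upstream the levels were 115 tags in KO and 44.7 tags in WT (fold 2.54). Inside intron 1, 2314 bp from the start, they were 45.0 tags in KO and 13.9 tags in WT (fold 3.09). H3K27ac was thus listed as higher in the KO library on both sides of the Krt20 start. The region inside exon 1 had the highest KO pileup and WT background of the gene, and the lowest fold.

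A distal group of H3K27ac regions lay upstream of Krt20. At 21324 bp from the start the mark reached 115 tags in the KO library and 35.7 tags in the WT library (fold 3.16), and by -log10 p this region ranked 177 of 7111. At 21969 bp the levels were 53.0 tags in KO and 16.9 tags in WT (fold 3.02). A weaker region at 15261 bp had 20 tags in KO and 5.88 tags in WT (fold 3.05), and 80 of the 243 windows of 50 bases in it have another exact copy in the genome, so its tags may be shared with other places. The neighbours of Krt20 on either side, the keratin genes Krt12 and Krt23, had no region in any list. The distal group went to Krt20 by the nearest start alone. With gene bodies extended by 5 kb in place of nearest starts, Krt20 had 5 H3K27ac regions in place of 8.

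H3K9ac at Krt20 followed the positions of H3K27ac. All 3 of its regions shared bases with an H3K27ac region, over 158, 285 and 175 bp, with summits 14, 22 and 1 bp apart. The share of all KO-higher H3K9ac regions that do so is not given here. In intron 1, H3K9ac reached 37.9 tags in the KO library and 6.93 tags in the WT library (fold 4.91), the highest fold of any region at the 6 genes and rank 196 of 1883 in its list. In exon 1 it reached 93.0 tags in KO and 43.0 tags in WT (fold 2.14). At 2365 bp upstream it reached 38.8 tags in KO and 13 tags in WT (fold 2.85). For both marks, the exon 1 region of Krt20 had the highest level and the lowest fold. A region with few tags needs a larger fold to be listed, so level and fold are not independent among listed regions.

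H3K4me1 went in the opposite direction at the same exon. At chr11:99299183-99299379, 207 bp inside Krt20, H3K4me1 had 17.9 tags in the KO library and 51.0 tags in the WT library, a WT over KO fold of 2.75. This region shared 197 bp with the KO-higher H3K27ac region and 168 bp with the KO-higher H3K9ac region of exon 1, and its summit lay 41 and 19 bp from theirs. The 168 bases in all 3 regions are the Krt20 sequence printed above. Of the 2 WT-higher regions at the 6 genes, this one alone shared bases with KO-higher regions. How often this occurs over the whole H3K4me1 list is not given here.

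**Figure D3:**
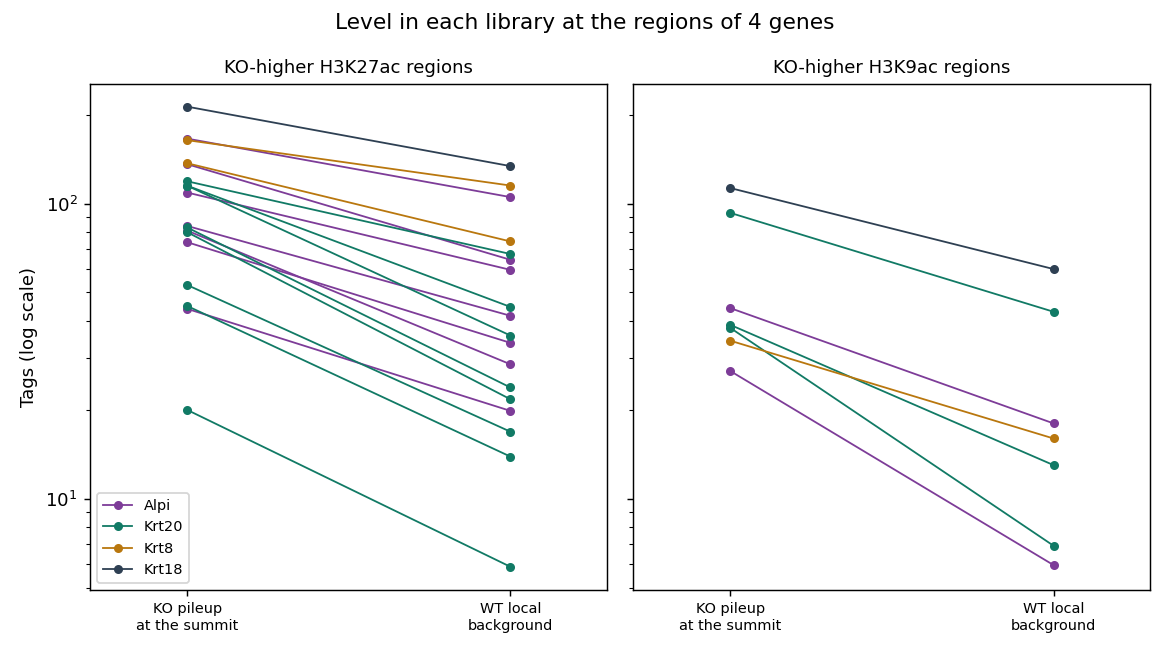
Tags at each KO-higher region of Alpi, Krt20, Krt8 and Krt18 (vertical axis, log scale), as the KO pileup at the summit (left point) and the local background of the WT library (right point), for H3K27ac and H3K9ac. For H3K27ac the steepest lines belong to Krt20 (80.0 tags in KO, 21.7 in WT, 564 bp upstream) and the flattest to Krt8 (164 tags in KO, 115 in WT, 669 bp upstream).

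Alpi encodes an alkaline phosphatase of the intestinal brush border and lies at chr1:88994579-88998181 on the minus strand, with 11 exons. Its 7 KO-higher H3K27ac regions and 2 KO-higher H3K9ac regions fell within 10561 bp, from chr1:88996061 to chr1:89006621, and ran from inside the gene into the sequence upstream of it. Of the genes with KO-higher H3K27ac, 164 had 7 regions or more. Neither H3K9ac region shared a base with an H3K27ac region. With so few regions and no share over the whole list, no difference from Krt20 is read from this.

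Inside Alpi, H3K27ac had high KO pileups and WT backgrounds, and its folds were low. In intron 2, 401 bp from the start, it reached 166 tags in the KO library and 105 tags in the WT library (fold 1.57). In coding exon 4 it reached 109 tags in KO and 59.6 tags in WT (fold 1.81), and in intron 6 it reached 84.0 tags in KO and 41.7 tags in WT (fold 1.99). The exon 4 region overlaps sequence that is partly repeated elsewhere, with 17 of its 212 windows of 50 bases found in another exact copy, against 3 of 208 windows in the intron 2 region and none in the other Alpi regions.

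Upstream of Alpi the folds were higher. The region 1542 bp upstream had 136 tags in the KO library and 64.5 tags in the WT library (fold 2.09). The highest H3K27ac fold of the gene, 2.78, lay 2971 bp upstream, with 81.0 tags in KO and 28.5 tags in WT. The regions at 5354 and 8315 bp both had a fold of 2.16, with 74.0 tags in KO and 33.7 tags in WT at the nearer one and 44.0 tags in KO and 19.8 tags in WT at the farther one. H3K27ac levels in the KO library fell off with distance here, while the fold stayed above 2.

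H3K9ac at Alpi was listed at 2 upstream places. At 558 bp it had 44.2 tags in the KO library and 18 tags in the WT library (fold 2.38). At 7549 bp it had 27.1 tags in KO and 5.96 tags in WT (fold 4.04), rank 399 of 1883 in its list. This region, printed above, lay between the 2 most distal H3K27ac regions.

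Akp3, known in mice as an intestinal alkaline phosphatase found mainly in the duodenum, is the neighbour of Alpi and lies at chr1:89021583-89024487 on the plus strand, with 11 exons. The starts of the 2 genes are 23402 bp apart. No acetylation region was assigned to Akp3. The nearest KO-higher H3K27ac and H3K9ac summits lay 15087 and 15853 bp from its start and were those assigned to Alpi, so the regions between the genes cannot be credited to one of them by distance alone. Its own region, WT-higher H3K4me1, lay in the last coding exon, 2535 bp from the start, with 14.5 tags in the KO library and 41.0 tags in the WT library (WT over KO fold 2.71).

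The 2 phosphatase genes are similar in coding sequence. Their coding sequences were identical at 81.0% of aligned bases, and 35 of the 1616 windows of 50 bases in Alpi occur in Akp3. Alppl2, the next alkaline phosphatase gene of the cluster, was identical to Alpi at 81.1% and to Akp3 at 77.5%. The acetylation regions at Alpi outside exon 4 and intron 2, and the H3K4me1 region at Akp3, contained no window with another exact copy. Neither Alppl2 nor Alpl, the tissue-nonspecific phosphatase gene, had a region in any list. On the other side of Akp3, Ecel1 had 1 WT-higher H3K9me3 region (fold 2.14), 14673 bp from the Akp3 start.

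Krt8 and Krt18, the main keratin pair of simple epithelia, are neighbours whose starts lie 23874 bp apart on chromosome 15. Krt8 (chr15:101827142-101834773, 9 exons) is on the minus strand and Krt18 (chr15:101858647-101862457, 7 exons) on the plus strand, so both are read away from the sequence between them. All 5 of their acetylation regions lay in that sequence. They had some of the highest levels and lowest folds of the regions described.

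Of the Krt8 regions, that 669 bp upstream had 164 H3K27ac tags in the KO library and 115 tags in the WT library, a fold of 1.42 that ranked 7039 of 7111. At 2161 bp upstream it was 137 tags in KO and 74.4 tags in WT (fold 1.83). The Krt18 region had the highest level of all 18, 213 tags in KO and 134 tags in WT (fold 1.59), at 11137 bp from the Krt18 start and 12737 bp from the Krt8 start. The -log10 q of these 3 regions lay between 2.30 and 6.87.

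H3K9ac between Krt8 and Krt18 reached 113 tags in the KO library and 60.0 tags in the WT library (fold 1.87) at a region 10569 bp from the Krt18 start. Another, 11375 bp from the Krt8 start and 12499 bp from the Krt18 start, had 34.3 tags in KO and 16 tags in WT (fold 2.08), with a -log10 q of 1.36. These H3K9ac regions and the third H3K27ac region lay near the middle of the interval, so their assignment to one gene of the pair rests on a small difference in distance. The outer neighbours were Krt78, with 1 WT-higher H3K4me1 region (fold 1.90), and Eif4b, with none.

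Krt19, another type I keratin of simple epithelia (chr11:100002124-100009979, minus strand), had no region in any list, although it lies only 705549 bp from Krt20. The nearest KO-higher H3K27ac region was 247303 bp from its start, at Jup. The nearest WT-higher H3K27ac region was 136780 bp away, at Krt42 (fold 2.04). The lists hold differences only, so a mark present at the same level in both genotypes would not be in them.

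Among the 47 other keratin genes, none had KO-higher H3K27ac or H3K9ac, beside 11.6% and 4.02% of all genes. Krt42 had 6 WT-higher H3K27ac regions (highest fold 2.78) and Krt7, a keratin of ducts and other simple epithelia, had 2 (highest fold 2.41). Both also had WT-higher H3K9ac, with highest folds of 2.08 at Krt42 and 5.80 at Krt7. Each acetyl mark was thus WT-higher at 2 of the 47 (4.26%), beside 7.58% of all genes for H3K27ac and 7.63% for H3K9ac. WT-higher H3K4me3 lay at Krt7 (fold 2.55) and Krt86 (fold 2.85), beside 15.3% of all genes. Many keratin genes belong to skin and hair, and a gene without the mark in either genotype cannot appear in these lists.

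RNA values, from libraries that are not among these samples, were at hand for part of the genes in the authors' deposited table. That table lists only the nearest genes of the WT-higher H3K4me1 regions, so Alpi, Krt8, Krt18 and Krt19 have no value in it. Its direction was read as KO over WT from the naming of its columns. In the authors' deposited table, Akp3 had a log2 fold change of 3.88, a 14.7-fold higher RNA level in KO, with an FDR of 1.77e-33. This was rank 1 of the 1549 genes of the authors' deposited table, whose median log2 fold change was -0.04. Krt20 had a log2 fold change of 1.10 in the authors' deposited table (2.14-fold higher in KO, FDR 4.53e-20), which was rank 98. Both genes with a value were thus higher in KO, beside 4.97% of the genes of the authors' deposited table higher and 9.62% lower at an FDR under 0.05. Akp3, with the larger RNA difference, had no acetylation region assigned to it, whereas Krt20 had 11. The 6 KO-higher acetylation regions between Akp3 and Alpi went to Alpi by the nearest start alone. The counts of the 2 genes are therefore not a contrast in acetylation.

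**Figure D4:**
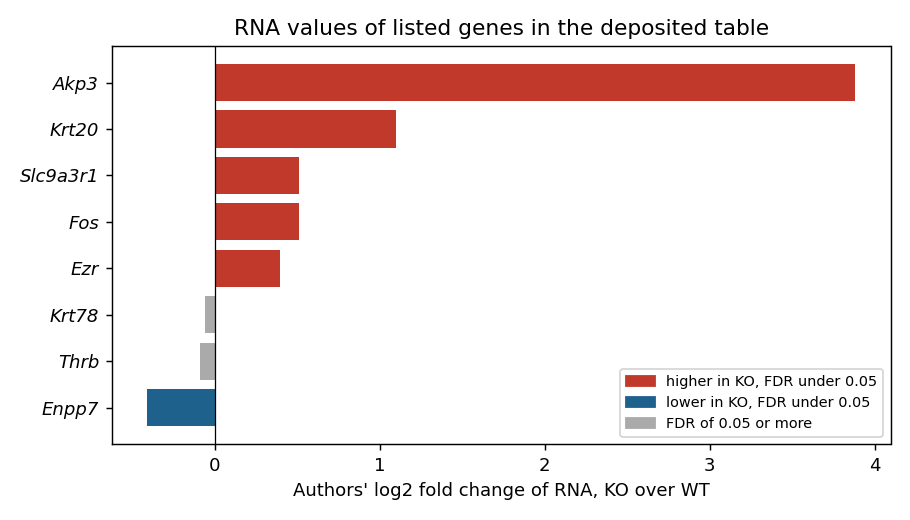
The authors' log2 fold change of RNA, KO over WT (horizontal axis), for Akp3 and Krt20 and for the 6 genes of the brush border, villus tip, keratin and transcription factor lists that are in the authors' deposited table. Akp3 (3.88) and Krt20 (1.10) lay above Slc9a3r1 and Fos (both 0.51) and Ezr (0.40), and Enpp7 lay below 0 (-0.41).

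The other genes of the maturing brush border and villus tip were counted in the same way. Of 17 genes for the structure of the microvillus, 11 had KO-higher H3K27ac and 8 had KO-higher H3K9ac (beside 11.6% and 4.02% of all genes), and none had WT-higher acetylation. The highest H3K27ac folds were at Vil1 (villin, an actin bundler, 12.7), Eps8 (a capping protein of actin filaments, 5.22), Cobl (an actin nucleator, 4.47) and Pls1 (plastin 1, another actin bundler, 4.14). For H3K9ac they were at Vil1 (11.5), Pls1 (7.05), Eps8 (6.06) and Anks4b (an adaptor of the links between microvilli, 5.05). Vil1 stood apart, since KO-higher H3K4me3 (highest fold 50.9) and KO-higher H3K9me3 (11 regions, highest fold 71.0) were also assigned to it. Over this list, with Vil1 included, the median of the genes' highest folds was 4.03 for H3K27ac and 4.75 for H3K9ac. It was 2.90 and 3.11 over all genes with such a region, and 2.30 and 3.06 over Alpi, Krt20, Krt8 and Krt18.

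Of 18 brush border hydrolases, 9 had KO-higher H3K27ac and 6 had KO-higher H3K9ac, beside 11.6% and 4.02% of all genes. The highest folds for H3K27ac were at Mgam (maltase-glucoamylase, 6.38), Enpep (aminopeptidase A, 4.75), Asah2 (neutral ceramidase, 3.90) and Ace (3.09), and Lct (lactase) had 2.92. For H3K9ac they were at Asah2 (5.89) and Abp1 (diamine oxidase, 4.78). WT-higher H3K27ac lay at 3 hydrolase genes, Mep1a (meprin, 3.72), Anpep (aminopeptidase N, 2.43) and Enpp7 (alkaline sphingomyelinase, 2.15), beside 7.58% of all genes. WT-higher H3K9ac also lay at 3, Enpep (4.04), Anpep (2.64) and Mep1a (2.17), beside 7.63% of all genes, so that Enpep had KO-higher H3K27ac and WT-higher H3K9ac. With both marks counted, 7 of the 18 had KO-higher acetylation alone, as did Alpi, beside 10.99% of all genes. WT-higher acetylation alone lay at 2 of the 18, beside 11.46% of all genes, and 2 had both, beside 1.31%.

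Of 12 villus tip genes, 7 had KO-higher H3K27ac and 4 had KO-higher H3K9ac, beside the same shares of all genes. The highest H3K27ac folds were at Ada (adenosine deaminase, 4.95), Slc28a2 (a nucleoside transporter, 3.86) and Enpp3 (an ectonucleotidase, 3.48). WT-higher H3K27ac lay at Klf4 (1.98), and WT-higher H3K9ac at Nt5e (3.22) and Ada (1.93). Over the 47 genes of these 3 lists, KO-higher H3K27ac lay at 27 (57.4%, beside 11.6% of all genes) and KO-higher H3K9ac at 18 (38.3%, beside 4.02%), and without Vil1 at 26 and 17 genes. WT-higher H3K27ac lay at 4 of the 47 (8.51%, beside 7.58% of all genes), WT-higher H3K9ac at 5 (10.6%, beside 7.63%) and WT-higher H3K4me3 at 10 (21.3%, beside 15.3%). WT-higher H3K4me1, the mark listed at Akp3 and Krt20, lay at 9 of the 47 (19.1%, beside 7.61%).

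**Figure D5:**
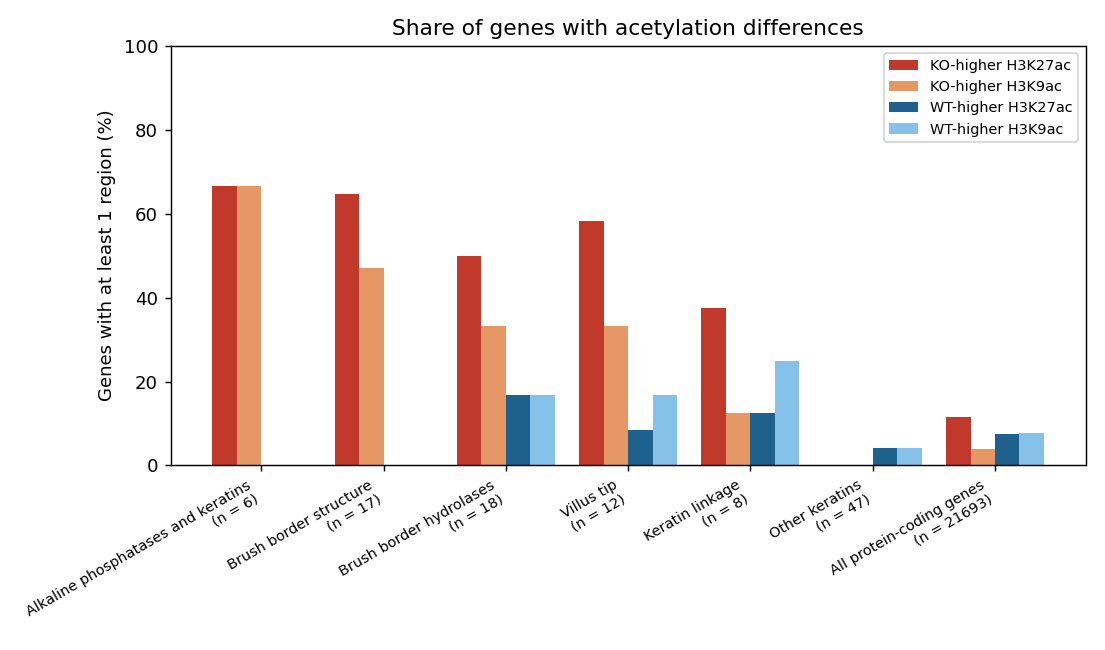
Percent of genes with at least 1 acetylation region (vertical axis) in the 6 alkaline phosphatase and keratin genes, in 5 gene lists and in all 21693 protein-coding genes (horizontal axis), for KO-higher and WT-higher H3K27ac and H3K9ac. KO-higher H3K27ac lay at 4 of the 6 genes, at 11 of 17 microvillus structure genes and at none of 47 other keratins, beside 11.6% of all genes.

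In the authors' deposited table, RNA of Ezr (ezrin, log2 fold change 0.40, FDR 7.09e-06), Slc9a3r1 (its scaffold partner, 0.51, FDR 1.82e-10) and Fos (0.51, FDR 0.00250) was higher in KO. RNA of Enpp7 was lower in KO in the authors' deposited table (-0.41, FDR 0.000482), although this gene had regions of both directions. Rbp2 (0.14, FDR 0.536), Pou2f3 (0.14, FDR 1), Mki67 (0.04, FDR 1) and Krt78 (-0.06, FDR 1) did not pass the FDR threshold in the authors' deposited table. Of the genes that tie keratin filaments to cell junctions, Dsp (desmoplakin, fold 4.34), Plec (plectin, 2.52) and Jup (plakoglobin, 1.54) had KO-higher H3K27ac. These made 3 of 8, beside 11.6% of all genes. Dsp also had KO-higher H3K9ac (3.85), as 1 of 8, beside 4.02% of all genes. Evpl and Ppl, of the same list, had WT-higher acetylation, with highest folds of 2.80 and 1.82. They made 2 of 8, beside 12.8% of all genes with WT-higher acetylation.

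Factors reported to act on the intestinal alkaline phosphatase gene were also looked up. Thra, the thyroid hormone receptor alpha gene, had KO-higher H3K27ac (highest fold 2.32) and H3K9ac (2.62). Hnf4a had KO-higher H3K27ac (2.31) and Thrb KO-higher H3K9ac (6.35), while Klf4 had WT-higher H3K27ac (1.98) and Cdx2 no region. Hnf4a also had WT-higher H3K4me3 (1.68) and Thrb WT-higher H3K4me1 (2.79). KO-higher H3K27ac and H3K9ac each lay at 2 of these 5 genes, beside 11.6% and 4.02% of all genes. WT-higher H3K27ac, H3K4me3 and H3K4me1 each lay at 1 of the 5, beside 7.58%, 15.3% and 7.61%. RNA of Thrb had a log2 fold change of -0.09 in the authors' deposited table (FDR 0.927).

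Markers of other cells of the epithelium and of the tissue below it were looked up in the acetylation lists. No goblet (6), Paneth (4), tuft (4), stem (4), cycling (4), immune (5) or stromal (7) marker had a KO-higher or WT-higher H3K27ac or H3K9ac region. Of 4 enteroendocrine markers, Chga had KO-higher H3K27ac (highest fold 1.78), KO-higher H3K9ac (2.18) and WT-higher H3K27ac (1.63). Over all genes, 12.3% had KO-higher and 12.8% WT-higher acetylation. In groups of 4 to 7 genes, a count of 0 cannot be told apart from these shares. A gene without the mark in either genotype cannot appear in the lists, so these counts do not show that other cells were unchanged.

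The letters of the regions were searched in 200-base windows around the summits, on both strands. The HNF4 site occurred in 1 of the 18 H3K27ac windows, that of the most distal Alpi region, and in 0.183% of the windows of the whole list (13 of 7094). The KLF core GGGTG occurred in 12 of the 18, beside 50.9% of the list, and the CDX core TTTAT in 3, beside 17.3%. AGGTCA occurred in 2 (14.3% of the list) and AGATAA in 1 (4.31%). At Krt20 the window 989 bp upstream held the CDX, GATA and nuclear receptor letters together, and the window 564 bp upstream, printed above, held the CDX core at 2 places. In the 7 H3K9ac windows TTTAT occurred in 1 (19% of the list), AGATAA in 1 (4.89%) and GGGTG in 3 (48.1%).

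The regions also resembled their lists in base composition. Median GC content was 55.8% over the 18 H3K27ac regions, against 54.9% over all KO-higher and 59.5% over all WT-higher H3K27ac regions, and 1 of the 18 reached the WT-higher median. For H3K9ac it was 54.9% over the 7 regions, against 54.7% over all KO-higher and 61.6% over all WT-higher regions.

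Genes with the most similar pattern were those with the smallest summed difference in region counts over the 10 lists. For Alpi they were Ksr1, Ankrd56 and Foxn3, with the same 7 H3K27ac and 2 H3K9ac regions, among 6 genes with no difference. For Krt20 they were D130043K22Rik, Fnip2 and Ttc7, which differed by 1 region. Patterns as small as those of Krt8 and Krt18 were common, with 59 and 93 genes at no difference, of which Metrnl, Dio3 and Sbno2 were nearest to Krt8 by fold and Cox19, Arhgef16 and Gpt nearest to Krt18.

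At the 50 kb limit, the farthest regions inside were those 15261, 21324 and 21969 bp from the Krt20 start (folds 3.05, 3.16 and 3.02). The nearest KO-higher H3K27ac regions outside lay 109992 bp from the Akp3 start, at Eif4e2 (fold 4.99), and 122525 bp from the Krt18 start, at Soat2 (fold 1.36).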

How the data were processed

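Chromatin was immunoprecipitated with the MAGnify system and read in 50 single-end cycles, per the labels' protocols. Builds and tools named in the submitters' processing notes are mm9, HOMER 3.12, MACS2 2.1.1, Bowtie2 2.2.9 and CASAVA 1.8.2. The file headers instead give MACS 2.0.10.20130419 with tags of 75 bp, which was not resolved. The ChIP libraries ranged from 27946003 to 47976125 tags, and 23925163 to 32444815 remained at 1 per position (56.0% in KO and 64.3% in WT for H3K9ac). Per the file headers, calls used the other genotype's library as control at a q cutoff of 0.05.

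The authors deposited for each region the pileup, a signal in tags at the summit, the fold, a ratio to the other library's local background, and the -log10 of the p-value and q-value. Adding 1 to pileup and background gave -log10 p within 0.01 for 99.9 to 100% of each list's regions, so backgrounds were worked back this way. Of 12 lists, 2 (KO H3K4me1 and KO H3K27me3) repeat the WT regions, which left 10. The 4 inputs were not used here.

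The authors' deposited table of RNA gives a log2 fold change and an FDR (an adjusted p-value) per gene. The tool behind it is not stated in the sources used here. Its direction follows HOMER's naming, in which the baseline comes first. Some per-library values were visible on first opening and had the matching sign. Those 12 columns, of 6 RNA libraries, entered no calculation.

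Regions were joined to GENCODE models of mm9 with Python 3.11.15, pandas 2.3.3 and pysam 0.24.0, and the join was tested on simulated data. Chromosomes 18, Y and M were left out, with 1 listed gene. No test of significance was run. The members and gene lists were chosen with earlier results of these data known. Named were all 6 genes, their neighbours, up to 4 genes per list, mark and direction by fold, listed genes in the RNA table and the 3 most similar genes. Alternatives were another distance, gene starts, gene bodies, q, fold and overlap, and leaving out Vil1. The last, and all alternatives for the numbers of genes with H3K9ac and H3K4me1, were added after the data were seen. Abp1 is the older symbol of Aoc1, matched through RefSeq names (GRCm38.p6).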

Additional observations from a re-analysis of the deposited data

How the results depend on the processing

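Counts at the 6 genes and in the brush border and villus tip lists stayed within 1.5 times the reported value with a limit of 100 kb, with the starts of all annotated genes, with an overlap of 50% and without Vil1. With a limit of 10 kb so did all but the genes with KO-higher H3K9ac, which were 2 in place of 4, and Krt18 had no region. Asking for a fold of at least 4 left 0 of 18 KO-higher H3K27ac regions, 2 of 7 KO-higher H3K9ac regions, 0 of 2 WT-higher regions, 0 of 4 genes with KO-higher H3K27ac, 2 of 4 with KO-higher H3K9ac, 0 of 2 with WT-higher H3K4me1, 0 of 3 shared regions, and 9 brush border and villus tip genes for each acetyl mark (27 and 18 as reported). The folds of 1.42 to 3.56 at the H3K27ac regions place all of them under that limit. Asking for a -log10 q of at least 5 left 4 KO-higher H3K9ac regions, 1 WT-higher region (H3K4me1, at the 1 gene Krt20) and 1 shared region. Gene bodies extended by 5 kb in place of nearest starts left 4 KO-higher H3K9ac regions at 2 genes. Both genes with RNA values were higher in KO at an FDR under 0.01 too. No paired analysis was possible because each mark had 1 library per genotype and no result came from a test. Depth limits what the lists can hold: a region with few tags needs a larger fold to be listed.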
